A study of Mus musculus with 96 samples.

Results

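The 4 Id genes, Id1, Id2, Id3 and Id4, the inhibitory SMAD genes Smad6 and Smad7 and the ligand gene Bmp4 were followed through 7 count tables of mouse embryonic stem cells (ESCs). These 7 genes were chosen by symbol, as a target family of bone morphogenetic protein (BMP) signalling, its feedback inhibitors and its ligand, and each is 1 of the 37620 genes of every table. Each table was analysed by itself and holds 2 libraries per group. All ESCs were grown with 15% serum and 1000 U/mL LIF. In the Rybp knockout, Rybp-floxed R7.15 ESCs were left untreated (Rybp+/+) or received 5 µM 4-OHT for 4 days (Rybp-/-), so that loss of Rybp and 4-OHT cannot be told apart. In the Rybp knockdown and the Wdr5 knockdown, R1 ESCs carried shRybp, shWdr5 or the empty vector shEV. Both knockdowns share the same shEV libraries, which count as 1 sample each. Their total counts differ between the 2 tables, while the proportions across genes differ by less than sampling noise. In the RYBP induction, J1 ESCs of genotype Tet on.RYBP received vehicle or DOX. The rTRS ESCs, with a DOX-induced Rybp_Stat3 integration, were labelled NTC or DOX, and the dose and time of DOX are not given in the sources used here. TF-AA mutation ESCs were compared with wild-type R1 ESCs, and the labels do not say which protein or residues TF-AA refers to. In the phase disruption table, both groups were R7.15 ESCs of genotype RYBPfl/fl Rosa26::CreERT2 treated with 4-OHT, 1 with overexpression of WT RYBP (WT.RYBP) and 1 with RYBP.21aa deletion. Peak lists of chromatin marks and factors came from Rybp+/+ and Rybp-/- ESCs, from R1 ESCs carrying shEV or shStat3, a knockdown of Stat3, and from R1 ESCs labelled Tet.Rybp.Stat3, which carry a DOX-induced Rybp_Stat3 integration and were left as control (DOX-) or received DOX (DOX+). Nothing in the labels says that the 2 libraries of a group came from separate cultures, and p-values then measure only the spread between these libraries.

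BMP ligands such as BMP4 bind type I and type II receptor kinases, which phosphorylate SMAD1, SMAD5 and SMAD9, and these enter the nucleus with SMAD4. ID proteins are helix-loop-helix proteins without a basic DNA-binding region, which hold E proteins such as TCF3, TCF4 and TCF12 away from E-boxes, and Id genes are classical direct targets of BMP signalling. In ESCs grown with serum and LIF, BMP signals acting through Id genes restrain neural differentiation while LIF acts through STAT3. SMAD6 and SMAD7 are themselves induced by BMP or TGF-β signals and act back on the receptors and the receptor-activated SMADs. RYBP is a subunit of a non-canonical Polycomb repressive complex 1, whose catalytic subunit is RING1B, and WDR5 is a subunit of the complexes that methylate histone H3 at lysine 4.

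RefSeq promoter windows of build GRCm38.p6, from 250 bases before to 50 bases after the start, were found for 5 of the 7 genes, Id2, Id3, Id4, Smad6 and Bmp4. They were searched for GGCGCC, a core of BMP-responsive SMAD sites, GTCTAGAC, a SMAD palindrome, TTCNNNGAA and TTCCNGGAA, which STAT3 can bind and of which the second is a special case of the first, and CACGTG, an E-box. Each of these motifs reads the same on both strands. Id2 and Id4 each held 1 GGCGCC, which 11.9% of all promoters in the RefSeq table hold, Smad6 held 1 GTCTAGAC, as did 0.213% of all promoters, and Bmp4 held 1 CACGTG, as did 2349 of the 32851 promoters. Id3 held none of them, and TTCNNNGAA, found in 8.30% of all promoters, was in none of the 5 windows, nor was TTCCNGGAA, found in 1.15%. The 250 bases before the start of Id2, Id4 and Bmp4, and the 20 bases over the start of Smad6, are shown 5′ to 3′ on the gene's strand because they hold these matches, which are in capitals. G and C made up 63.3% of the window of Id2 and 73.3% of that of Id4, against a median of 52.7% over all promoters. A match is a description of the letters only.
Id2, minus strand of chr12:25096093-25096342: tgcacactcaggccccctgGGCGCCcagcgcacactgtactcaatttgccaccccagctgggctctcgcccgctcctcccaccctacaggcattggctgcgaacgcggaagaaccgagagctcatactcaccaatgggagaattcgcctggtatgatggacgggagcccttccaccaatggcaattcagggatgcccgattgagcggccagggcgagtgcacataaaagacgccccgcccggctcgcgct
Id4, plus strand of chr13:48260866-48261115: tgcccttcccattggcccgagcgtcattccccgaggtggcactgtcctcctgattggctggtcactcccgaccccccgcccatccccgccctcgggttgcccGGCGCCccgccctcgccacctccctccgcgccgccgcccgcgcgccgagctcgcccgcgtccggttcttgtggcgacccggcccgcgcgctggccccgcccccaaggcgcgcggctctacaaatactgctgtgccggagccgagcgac
Bmp4, minus strand of chr14:46390670-46390919: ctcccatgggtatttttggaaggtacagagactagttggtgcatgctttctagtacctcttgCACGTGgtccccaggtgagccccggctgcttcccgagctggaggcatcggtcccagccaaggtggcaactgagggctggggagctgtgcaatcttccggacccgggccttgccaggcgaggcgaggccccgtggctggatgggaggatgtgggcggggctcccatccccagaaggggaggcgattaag
Smad6, minus strand of chr9:64022050-64022069: caaagtGTCTAGACtggcat

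The libraries held 14512857 to 81049618 counts on genes, and all values below are counts scaled to each library's normalized size (CPM) unless a level per gene length is named. The targeted genes were examined first. Rybp had 110.4 and 110.2 CPM in Rybp+/+ ESCs and 24.8 and 25.0 CPM in Rybp-/- ESCs, and 85.7 and 86.4 CPM with shEV and 35.8 and 36.6 CPM with shRybp. Wdr5 fell from 349.8 and 343 to 60.05 and 58.2 CPM with shWdr5. Rybp rose to 3.77-fold of the vehicle level with DOX in J1 ESCs, from 135 and 145 to 522 and 535 CPM. In rTRS ESCs the labelled induction was not seen for Rybp, at 113 and 110.5 CPM in the NTC libraries and 102 and 99.8 CPM in those labelled DOX (adjusted p = 0.076), and Stat3 had 159 and 172 CPM in the NTC libraries and 191 and 188 CPM in those labelled DOX (log2 fold change 0.20, SE 0.064, adjusted p = 0.026). These are therefore called the libraries labelled DOX, and no direction for RYBP is read from them. In the phase disruption table Rybp had 749 and 753 CPM with WT.RYBP and 662 and 626 CPM with RYBP.21aa deletion, and a count per gene does not show the deletion itself. The pluripotency markers Pou5f1, Nanog, Sox2, Zfp42, Esrrb and Klf4 were detected in every library.

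Compared per gene length, as CPM per kilobase (RPKM), the Id genes did not keep the same order in every control group. In the Rybp+/+ libraries of R7.15, Id2 was the highest of the 7 genes at 42.2 and 40.7 RPKM, followed by Id3 at 17.2 and 17.8, while Id1 was at 4.47 and 5.00. There, the neighbours Smad7 and Bmp4, and Id4 and Id1, overlapped between libraries and were not told apart. In the shEV libraries of R1, Smad7 at 47.2 and 54.0 RPKM and Id1 at 49.9 and 46.1 overlapped and stood above Id3 at 31.3 and 34.1, with Id2 at only 8.34 and 8.86. In wild-type R1 ESCs of the TF-AA table, Id1 at 82.9 and 68.4 RPKM and Bmp4 at 57.1 and 57.9 were highest, and in the rTRS NTC libraries Id1 reached 89.9 and 86.3. In J1 vehicle libraries Smad7 led at 34.5 and 31.7 RPKM, ahead of Bmp4 at 22.9 and 22.9 and Id1 at 21.4 and 18.5. With WT.RYBP, Id3 led at 29.2 and 31.9 RPKM, followed by Id2 at 25.9 and 24.7 and Id1 at 21.0 and 22.4. The neighbours Id4 and Smad6 in shEV and Id3 and Smad7 in rTRS NTC also overlapped. Smad6 was the lowest of the 7 genes in every control group except rTRS NTC, from 0.627 RPKM with vehicle to 3.81 with shEV, and in rTRS NTC Id4 was lowest at 1.59. Bmp4 was at 13.1 RPKM in shEV and 57.5 in wild-type ESCs, although both are R1. Id1 therefore made up 6.89% of the summed Id level in Rybp+/+ and 27.2% in WT.RYBP, although both are R7.15. Its share was 51.4% in shEV, 59.7% in wild-type R1, 49.1% in J1 vehicle and 65.9% in rTRS NTC. The tables were made separately, so these levels are set side by side and were not tested against each other.

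To see how the Id genes and the BMP feedback genes respond to loss of RYBP, Rybp-/- ESCs were compared with Rybp+/+ ESCs of the R7.15 line. Of the 4 Id genes, 3 rose, Id1 the most at 2.96-fold, then Id3 at 2.65-fold and Id2 at 1.70-fold. Bmp4 rose 1.73-fold and Smad7 1.19-fold, while Id4 fell and Smad6 did not pass the test. In all, 5 genes were called higher and 1 lower, at an adjusted p under 0.05, in a table where 45.5% of the 16955 tested genes were called, 22.8% higher and 22.7% lower, and where the groups did not overlap for 70.8%. For the 7 genes themselves no groups overlapped. Their median log2 fold change was 0.77, against 0.0016 over all tested genes.

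Id1 had 5.19 and 5.80 CPM in Rybp+/+ ESCs and 17.4 and 15.1 CPM in Rybp-/- ESCs (log2 fold change 1.56, SE 0.10, adjusted p = 1.1e-14). Both Rybp-/- libraries lay above both Rybp+/+ libraries, and 96.2% of the tested genes had a lower log2 fold change. Id3 had 30.9 and 31.9 CPM in Rybp+/+ ESCs and 83.5 and 83.0 CPM in Rybp-/- ESCs (log2 fold change 1.41, SE 0.048, adjusted p = 8.3e-22), and Id2 had 53.6 and 51.7 CPM in Rybp+/+ ESCs and 90.1 and 89.3 CPM in Rybp-/- ESCs (log2 fold change 0.77, SE 0.043, adjusted p = 5.9e-16). For both genes the libraries of a group lay close to each other and the groups did not overlap. Bmp4 had 14.5 and 15.5 CPM in Rybp+/+ ESCs and 28.0 and 23.8 CPM in Rybp-/- ESCs (log2 fold change 0.79, SE 0.076, adjusted p = 2.5e-10). Smad7, which antagonizes both BMP and TGF-β receptors, moved from 31.4 and 32.5 to 38.1 and 38.3 CPM (log2 fold change 0.26, SE 0.055, adjusted p = 2.6e-04), without overlap. Id4 had 8.80 and 7.89 CPM in Rybp+/+ ESCs and 7.14 and 6.41 CPM in Rybp-/- ESCs (log2 fold change -0.30, SE 0.11, adjusted p = 0.025). Both Rybp-/- libraries were lower, and the call was lost without Rybp+/+ replicate 1 (log2 fold change -0.23, adjusted p = 0.18), without Rybp-/- replicate 2 (log2 fold change -0.23, adjusted p = 0.2) and with DESeq2 (log2 fold change -0.30, adjusted p = 0.11), and without the filter on low counts its adjusted p was 0.057. Smad6, which competes with receptor-activated SMADs, had 3.38 and 4.30 CPM in Rybp+/+ ESCs and 4.63 and 4.35 CPM in Rybp-/- ESCs and was not called (log2 fold change 0.22, SE 0.15, adjusted p = 0.23).

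Markers of fibroblasts, a cell type on which ESCs can be grown, moved with the genotype in this table. Of the 7 markers, 6 rose, among them Col1a1 (log2 fold change 0.92), Col3a1 (1.24) and Postn (1.16), and none was at 0. Their summed level was 56.5 to 57.2 CPM in the control libraries and 114 to 120.0 CPM in the others. Of the 4 trophectoderm markers, all rose, with summed levels of 6.87 to 7.25 CPM in the control libraries and 12.6 to 12.8 CPM in the others. DESeq2 did not call the trophectoderm marker Hand1 (adjusted p = 0.055) or the fibroblast marker Dcn (0.094). Of the 5 primitive endoderm markers Pdgfra (1.43), Dab2 (0.95) and Gata4 (0.78) rose, and the list summed to 7.46 to 8.79 CPM in the control libraries and 14.8 to 16.3 CPM in the others. The neural marker Pax6 fell (-1.31), no mesoderm marker was called, and 5 of 6 pluripotency markers passed the test, 4 of them higher. The part of these cells in the Id and Bmp4 values was not tested, and in such bulk libraries more cells of a type and more RNA per cell cannot be told apart.

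Among 40 other BMP pathway genes, 38 were tested and 24 were called, 13 higher and 11 lower, with a median log2 fold change of 0.044. The ligand genes Bmp2, Bmp7, Bmp8b and Gdf3 rose, whereas 3 of 6 receptor genes fell and none rose. The share called was 50% for receptor genes, beside 45.5% of all tested genes. DESeq2 called 3 of these 4 ligand genes, not Bmp8b (adjusted p = 0.1), and 2 receptor genes. Large changes among genes of at least 1 CPM were those of Grem1, a secreted BMP antagonist (from 24.2 and 24.7 to 61.1 and 65.3 CPM, log2 fold change 1.37, SE 0.054, adjusted p = 3.6e-20), Msx2, a homeobox target of BMP signals (from 1.11 and 1.09 to 2.59 and 2.82 CPM, log2 fold change 1.30, SE 0.22, adjusted p = 9.7e-06), Dusp9, a MAP kinase phosphatase induced by BMP in ESCs (from 78.0 and 81.9 to 152 and 153 CPM, log2 fold change 0.93, SE 0.038, adjusted p = 1.4e-19), and Bmp7 (from 6.87 and 7.27 to 12.5 and 11.3 CPM, log2 fold change 0.75, SE 0.10, adjusted p = 1.3e-07). The groups did not overlap for any of these 4 genes.

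The same question was asked in R1 ESCs with the Rybp knockdown. All 4 Id genes rose, here with Id2 first at 3.12-fold, then Id1 at 1.91-fold, Id4 at 1.70-fold and Id3 at 1.45-fold. Smad6 also rose, by 1.65-fold, Bmp4 fell by 1.40-fold, and Smad7 did not pass the test. Thus 5 of the 7 genes were called higher and 1 lower, where 52.7% of the 16538 tested genes were called, 26.8% higher and 26% lower, and where the groups did not overlap for 75.6%. The median log2 fold change of the 7 genes was 0.72 and that of all tested genes 0.018.

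Id2 had 10.6 and 11.3 CPM with shEV and 36.5 and 31.5 CPM with shRybp (log2 fold change 1.64, SE 0.10, adjusted p = 8.2e-11). Id1 had 57.9 and 53.4 CPM with shEV and 108 and 105 CPM with shRybp (log2 fold change 0.94, SE 0.058, adjusted p = 1.8e-10), and Id3 had 56.0 and 61.0 CPM with shEV and 84.7 and 85.1 CPM with shRybp (log2 fold change 0.54, SE 0.059, adjusted p = 4.1e-07). In each case both shRybp libraries were higher than both shEV libraries. Id4 moved from 7.21 and 6.28 to 11.2 and 11.8 CPM (log2 fold change 0.77, SE 0.13, adjusted p = 5.7e-05) and Smad6 from 11.3 and 13.1 to 20.2 and 20.0 CPM (log2 fold change 0.72, SE 0.10, adjusted p = 7.6e-06), again without overlap. Bmp4 had 29.1 and 29.0 CPM with shEV and 20.9 and 20.5 CPM with shRybp (log2 fold change -0.49, SE 0.080, adjusted p = 4.6e-05), so that both shRybp libraries were lower. Smad7 had 214 and 244 CPM with shEV and 209.5 and 229.9 CPM with shRybp, with overlapping groups (adjusted p = 0.43). Without shEV replicate 1, Smad7 would be called lower (log2 fold change -0.16, adjusted p = 0.0058), and without shEV replicate 2 its log2 fold change was 0.032.

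Fibroblast markers were low in these libraries. Dcn and Lum were at 0 in every library, 4 of the 7 markers did not reach the filter on low counts, and the summed level was 18.6 to 18.8 CPM in the control libraries and 30.7 to 31.9 CPM in the others, with the 3 tested markers Col1a1, Col1a2 and Thy1 higher. All 4 trophectoderm markers rose (Gata3, log2 fold change 3.04, and Hand1, 3.44), with summed levels of 3.86 to 4.63 CPM in the control libraries and 28.4 to 28.5 CPM in the others. Of the 5 primitive endoderm markers 4 rose, Sox17 (1.44), Gata4 (1.39), Dab2 (1.32) and Gata6 (0.58, not called by DESeq2, adjusted p = 0.13), and the list summed to 9.63 to 13.3 CPM in the control libraries and 23.5 to 26.8 CPM in the others. Of 4 mesoderm markers only Eomes was called, and it fell (-0.61). T (1.16), Mesp1 (0.58) and Mixl1 (-0.051) were not called. The neural marker Pax6 fell (-0.95). Pou5f1 (-0.66), Zfp42 (-0.38) and Esrrb (-0.42) fell, Nanog (0.22) and Klf4 (0.18) rose, and the part of such cells in the Id values was not tested.

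Of the other BMP pathway genes, 36 of 40 were tested, 18 were higher and 7 lower, with a median log2 fold change of 0.28. Of 6 tested ligand genes 5 rose, and of 6 receptor genes 5 rose and 1 fell, though DESeq2 called only 2 of the receptor genes. Among genes of at least 1 CPM, Msx2 (from 2.65 and 3.21 to 10.2 and 10.3 CPM, log2 fold change 1.81, SE 0.16, adjusted p = 1.7e-08), Bmp8b (from 2.96 and 2.47 to 8.84 and 7.29 CPM, log2 fold change 1.57, SE 0.18, adjusted p = 5.5e-07) and Bmp7 (from 6.73 and 7.18 to 19.2 and 18.3 CPM, log2 fold change 1.43, SE 0.11, adjusted p = 3.4e-09) changed the most. The type I receptor gene Bmpr1b (from 0.708 and 1.01 to 2.54 and 1.87 CPM, log2 fold change 1.37, SE 0.33, adjusted p = 0.0019) and the homeobox gene Msx1 (from 1.57 and 1.71 to 3.30 and 5.02 CPM, log2 fold change 1.33, SE 0.25, adjusted p = 2.0e-04) followed. Tcf3, whose product is an E protein bound by ID proteins, fell (log2 fold change -0.91), and Tcf12 rose (0.60).

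Knockdown of Wdr5 was compared with the same shEV libraries, which in this table hold 21241931 and 19731613 counts on genes against 41697967 and 38961268 in the Rybp knockdown table. Id1 fell to 0.542 of its shEV level and Bmp4 to 0.659, while Id4 rose 1.51-fold. Smaller changes were called for Id2 and Smad6, which rose, and for Id3 and Smad7, which fell. All 7 genes were thus called, 3 higher and 4 lower, in a table where 63% of the 15143 tested genes were called, 31.5% higher and 31.5% lower, and where the groups did not overlap for 81%. Their median log2 fold change was -0.17, beside -0.0074 for all tested genes.

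Id1 had 54.8 and 50.7 CPM with shEV and 30.0 and 27.2 CPM with shWdr5 (log2 fold change -0.88, SE 0.074, adjusted p = 4.5e-10). Bmp4 had 27.5 and 27.4 CPM with shEV and 18.6 and 17.5 CPM with shWdr5 (log2 fold change -0.60, SE 0.086, adjusted p = 2.3e-06), and Id4 had 7.01 and 6.58 CPM with shEV and 10.5 and 10.1 CPM with shWdr5 (log2 fold change 0.59, SE 0.13, adjusted p = 4.3e-04). For these 3 genes the call held without any single library and with DESeq2. Id2 moved from 10.1 and 10.7 to 12.5 and 12.7 CPM (log2 fold change 0.28, SE 0.11, adjusted p = 0.038), Smad6 from 10.6 and 12.4 to 14.8 and 13.9 CPM (log2 fold change 0.32, SE 0.11, adjusted p = 0.015), Id3 from 52.9 and 57.3 to 49.7 and 48.5 CPM (log2 fold change -0.17, SE 0.065, adjusted p = 0.03) and Smad7 from 202 and 233 to 194 and 191 CPM (log2 fold change -0.17, SE 0.055, adjusted p = 0.0091). These 4 changes are small, though the groups did not overlap for any of them. DESeq2 called 4 of the 7 genes and 42% of all, and edgeR also called 4 without shWdr5 replicate 1 (not Id2, Id3 or Smad6) and 4 without shWdr5 replicate 2 (not Id2, Id3 or Smad7). Id2 and Smad6 lost their calls without shEV replicate 1 (adjusted p = 0.15 and 0.15), and Id3 and Smad7 without shEV replicate 2 (adjusted p = 0.22 and 0.26). Without the filter on low counts the adjusted p of Id2 was 0.059.

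Of the other BMP pathway genes 35 were tested, 15 were higher and 10 lower. Bmp7 had 6.73 and 6.99 CPM with shEV and 51.6 and 56.4 CPM with shWdr5 (log2 fold change 2.98, SE 0.094, adjusted p = 1.0e-17), the largest change of the list among genes of at least 1 CPM. Smad5, a receptor-activated SMAD, rose from 33.7 and 38.0 to 82.1 and 74.7 CPM (log2 fold change 1.13, SE 0.070, adjusted p = 2.0e-12), as did Msx2 (log2 fold change 1.00, SE 0.19, adjusted p = 1.0e-04) and the antagonist gene Nog (log2 fold change 0.99, SE 0.24, adjusted p = 0.0012), whereas Bmp6 fell from 5.24 and 6.63 to 3.08 and 3.26 CPM (log2 fold change -0.90, SE 0.19, adjusted p = 2.6e-04). Of 6 tested ligand genes only Bmp7 was called higher and 4 were called lower, and DESeq2 called 3 ligand genes in all. Of the primitive endoderm markers 4 of 5 rose, of which DESeq2 called 2, with summed levels of 9.77 to 13.1 CPM in the control libraries and 34.1 to 34.3 CPM in the others, and 3 of 4 trophectoderm markers rose (3.64 to 4.54 CPM in the control libraries and 23.6 to 25.3 CPM in the others). Fibroblast markers summed to 18.0 to 18.3 CPM in the control libraries and 15.3 to 15.7 CPM in the others, with Dcn and Lum at 0, Col1a1 higher (log2 fold change 0.91) and Thy1 lower (-1.91). The neural marker Pax6 fell (-1.16), as did the mesoderm markers Mixl1 (-1.33) and Eomes (-0.29), of which DESeq2 called neither. Of 6 pluripotency markers 4 fell and 2 rose, Sox2 (0.24) and Klf4 (0.22). The part of any such change in the values of the 7 genes was not tested.

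Comparing both knockdowns side by side, the values share their shEV libraries. Id1 was 0.94 after the Rybp knockdown and -0.88 after the Wdr5 knockdown on the log2 scale, Id2 1.64 and 0.28, Id3 0.54 and -0.17, Id4 0.77 and 0.59, Smad6 0.72 and 0.32, Smad7 -0.060 and -0.17 and Bmp4 -0.49 and -0.60. Wdr5 itself moved from 372 and 364 to 265 and 259.7 CPM in the Rybp knockdown (log2 fold change -0.49, SE 0.044, adjusted p = 2.7e-08), and Rybp from 79.9 and 81.3 to 121 and 117 CPM in the Wdr5 knockdown (log2 fold change 0.56, SE 0.053, adjusted p = 3.8e-09).

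**Figure D1:**
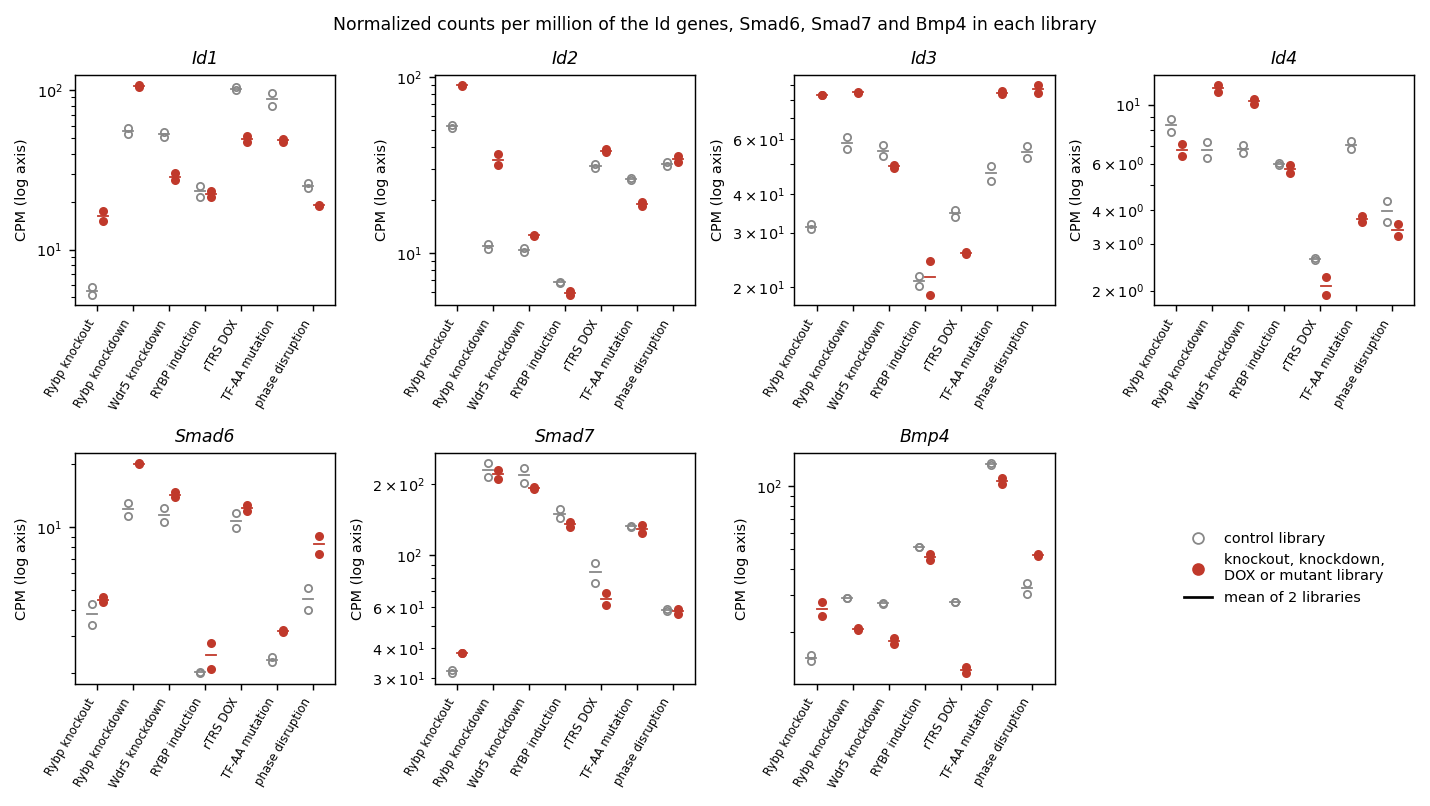
Points give normalized CPM on a log axis in each library for each of the 7 genes, with control libraries open and grey, knockout, knockdown, DOX or mutant libraries filled and red, and the mean of 2 libraries as a line. Id1 lies higher in the red libraries of the Rybp knockout and Rybp knockdown and lower in those of the Wdr5 knockdown, rTRS, TF-AA and phase disruption tables.

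RYBP was raised rather than removed in J1 ESCs. None of the 7 genes was called with DOX by edgeR, where 6.02% of the 14937 tested genes were called, 3.63% higher and 2.39% lower, and where the groups did not overlap for 48.1%. Id1 had 24.9 and 21.4 CPM with vehicle and 21.3 and 23.4 CPM with DOX, Id2 had 6.76 and 6.90 CPM with vehicle and 5.79 and 6.08 CPM with DOX and Id3 had 20.2 and 21.8 CPM with vehicle and 18.9 and 24.4 CPM with DOX. The Id1 and Id3 groups overlapped, and those of the other 5 genes did not. Their log2 fold changes were -0.050 (SE 0.12), -0.20 (SE 0.19) and 0.047 (SE 0.12), that of Id4 was -0.061 (SE 0.20), and that of Smad6, at 1.99 to 2.78 CPM, 0.28 (SE 0.34). Bmp4 had 50.9 and 50.9 CPM with vehicle and 44.2 and 47.2 CPM with DOX (log2 fold change -0.16, SE 0.084, adjusted p = 0.33). Smad7 had 156 and 143 CPM with vehicle and 131 and 138 CPM with DOX (log2 fold change -0.15, SE 0.061, adjusted p = 0.15) and was the only 1 of the 7 genes with an unadjusted p under 0.05, as for 18.8% of all tested genes. DESeq2 called none of the 7 and 4.66% of all genes, and without vehicle replicate 2 edgeR called Smad7 (log2 fold change -0.21, adjusted p = 0.0018). A p that misses the threshold does not show that these genes kept their level.

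Of 33 tested genes of the BMP pathway list 4 were higher with DOX and 3 lower. Bmpr1b rose from 0.305 and 0.406 to 1.28 and 2.04 CPM (log2 fold change 2.22, SE 0.58, adjusted p = 0.016) and Bmp7 from 1.495 and 1.30 to 3.62 and 3.07 CPM (log2 fold change 1.25, SE 0.33, adjusted p = 0.017), both at low levels. Chrd, a secreted antagonist, fell from 9.03 and 7.16 to 5.79 and 4.19 CPM (log2 fold change -0.70, SE 0.20, adjusted p = 0.031), while Dusp9 (log2 fold change 0.33, SE 0.10, adjusted p = 0.044) and Skil, which encodes a SMAD co-repressor (log2 fold change 0.27, SE 0.058, adjusted p = 0.0023), rose. The number called was 2 without DOX replicate 1, 1 without DOX replicate 2 and 3 with DESeq2, which did not call Bmp7 (adjusted p = 0.057), Chrd (0.15) or Dusp9 (0.12). Of the 15 markers tested, edgeR and DESeq2 called none and 6 had an unadjusted p under 0.05 in edgeR, and Col3a1, Postn, Dcn and Lum were at 0 in all 4 libraries.

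In the rTRS libraries labelled DOX, Bmp4 and Id1 fell the most of the 7 genes, and a link between them was not tested. Bmp4 fell 2.12-fold and Id1 2.06-fold, with smaller falls of Id3 and Smad7, while Id2 rose. Id4 and Smad6 did not pass the test. With 1 gene called higher and 4 lower, these counts come from a table where 43.4% of the 16291 tested genes were called, 23% higher and 20.4% lower, and where the groups did not overlap for 71.3%. The median log2 fold change of the 7 genes was -0.37 against 0.0036 over all tested genes.

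Id1 had 104 and 100.2 CPM in the NTC libraries and 51.8 and 47.3 CPM in those labelled DOX (log2 fold change -1.04, SE 0.074, adjusted p = 2.2e-07). Bmp4 had 27.9 and 27.9 CPM in the NTC libraries and 12.7 and 13.6 CPM in those labelled DOX (log2 fold change -1.09, SE 0.10, adjusted p = 2.7e-06). The groups did not overlap for either gene, and 6.10% and 5.75% of the tested genes had a lower log2 fold change. Id3 moved from 35.5 and 33.8 to 25.9 and 25.6 CPM (log2 fold change -0.43, SE 0.088, adjusted p = 0.0017) and Smad7 from 92.1 and 76.1 to 68.9 and 61.5 CPM (log2 fold change -0.37, SE 0.094, adjusted p = 0.0066). Id2 moved the other way, from 30.6 and 32.0 to 37.6 and 38.8 CPM (log2 fold change 0.29, SE 0.085, adjusted p = 0.015). Id4 was at 1.93 to 2.66 CPM in all 4 libraries (adjusted p = 0.31), and Smad6 had 11.6 and 9.88 CPM in the NTC libraries and 12.0 and 12.7 CPM in those labelled DOX (adjusted p = 0.24). Without rTRS NTC replicate 1 the calls of Id2 (log2 fold change 0.25, adjusted p = 0.098) and Smad7 (log2 fold change -0.22, adjusted p = 0.082) were lost, as was that of Id2 without the second library labelled DOX (log2 fold change 0.27, adjusted p = 0.06).

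Markers of other cell states moved strongly in the same libraries. Pluripotency markers fell in 5 of 6 cases (Zfp42, log2 fold change -1.68, Klf4, -1.12), with summed levels of 3706 to 3858 CPM in the control libraries and 2193 to 2307 CPM in the others. All 4 trophectoderm markers rose (10.0 to 10.7 CPM in the control libraries and 64.8 to 68.6 CPM in the others), as did T and Eomes among 4 mesoderm markers (11.9 to 14.0 CPM in the control libraries and 57.2 to 62.6 CPM in the others), and fibroblast markers summed to 22.5 to 24.2 CPM in the control libraries and 21.8 to 27.5 CPM in the others, with Lum at 0, Col1a1 higher (log2 fold change 0.91) and Thy1 lower (-0.72). Dab2 alone of 5 primitive endoderm markers rose (1.94), with the list at 6.83 to 8.53 CPM in the control libraries and 20.7 to 21.3 CPM in the others, and the neural marker Pax6 fell (-2.06) from under 1 CPM. The part of a change of cell state in the values of the 7 genes was not tested.

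Of the other BMP pathway genes 36 were tested, 19 were higher and 5 lower, with a median log2 fold change of 0.34. Msx2 had 3.44 and 3.18 CPM in the NTC libraries and 17.9 and 18.8 CPM in those labelled DOX (log2 fold change 2.47, SE 0.14, adjusted p = 2.0e-08). Msx1 rose from near 0 (from 0.294 and 0.0745 to 4.62 and 2.91 CPM, log2 fold change 4.35, SE 0.48, adjusted p = 1.1e-05), and of 7 tested antagonist genes 4 rose, among them Fst (from 1.74 and 1.77 to 5.72 and 6.24 CPM, log2 fold change 1.77, SE 0.20, adjusted p = 1.6e-05) and Nbl1 (from 0.861 and 0.205 to 2.00 and 2.67 CPM, log2 fold change 2.14, SE 0.51, adjusted p = 0.0041), and 1 fell, Chrd (log2 fold change -1.02), named after its value was seen. Bmp8b rose from 4.56 and 3.93 to 10.2 and 10.6 CPM (log2 fold change 1.30, SE 0.15, adjusted p = 2.0e-05). Thus Id1 fell while the BMP targets Msx1 and Msx2 rose in the same libraries.

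TF-AA mutation ESCs were compared with wild-type R1 ESCs. The Id genes split: Id4 fell 1.89-fold, Id1 1.82-fold and Id2 1.39-fold, whereas Id3 rose 1.82-fold. Bmp4 fell slightly, and Smad6 and Smad7 did not pass the test. The counts of 1 higher and 4 lower come from a table where 30.5% of the 14456 tested genes were called, 14.4% higher and 16.1% lower, and where the groups did not overlap for 63.7%. The median log2 fold change was -0.27, and 0.0069 over all tested genes.

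Id1 had 96.2 and 79.3 CPM in wild-type ESCs and 49.5 and 47.1 CPM in TF-AA ESCs (log2 fold change -0.86, SE 0.095, adjusted p = 1.9e-07). Id3 had 49.2 and 44.0 CPM in wild-type ESCs and 85.8 and 83.7 CPM in TF-AA ESCs (log2 fold change 0.86, SE 0.088, adjusted p = 6.1e-08), so that both mutant libraries lay above both wild-type libraries where for Id1 they lay below. Id4 moved from 6.78 and 7.31 to 3.83 and 3.63 CPM (log2 fold change -0.92, SE 0.20, adjusted p = 9.6e-04) and Id2 from 26.0 and 26.8 to 18.5 and 19.5 CPM (log2 fold change -0.47, SE 0.11, adjusted p = 0.0022). Only 2.77% of the tested genes had a lower log2 fold change than Id4 and 3.37% than Id1. Id3 thus made up 20.5% of the summed Id level per length in wild-type and 44.5% in TF-AA ESCs, and Id1 59.7% and 39.2%. Bmp4 had 127 and 129 CPM in wild-type ESCs and 109 and 103 CPM in TF-AA ESCs (log2 fold change -0.27, SE 0.079, adjusted p = 0.011), and its call was lost without TF-AA replicate 1 (adjusted p = 0.079) and without TF-AA replicate 2 (adjusted p = 0.24). Smad7 had 132 and 132 CPM in wild-type ESCs and 134 and 123 CPM in TF-AA ESCs with overlapping groups, and Smad6 moved from 2.24 and 2.37 to 3.13 and 3.20 CPM (adjusted p = 0.22).

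Of the other BMP pathway genes 33 were tested, 7 were higher and 7 lower, and 8 were called without TF-AA replicate 1. Bmp6 had 0.143 and 0.198 CPM in wild-type ESCs and 1.89 and 1.87 CPM in TF-AA ESCs (log2 fold change 3.42, SE 0.53, adjusted p = 2.7e-05). The SMAD co-repressor gene Skil fell from 139.6 and 149.9 to 72.5 and 76.1 CPM (log2 fold change -0.96, SE 0.082, adjusted p = 3.1e-09), the type II receptor gene Acvr2a fell from 16.4 and 18.9 to 9.54 and 9.77 CPM (log2 fold change -0.87, SE 0.14, adjusted p = 3.2e-05), Twsg1, whose product binds BMPs outside the cell, fell from 41.1 and 42.7 to 23.3 and 29.1 CPM (log2 fold change -0.68, SE 0.11, adjusted p = 4.2e-05), and Bmpr1b rose from 1.86 and 1.09 to 3.58 and 2.78 CPM (log2 fold change 1.10, SE 0.32, adjusted p = 0.01, and 0.1 with DESeq2). The 3 tested fibroblast markers Col1a1, Col1a2 and Thy1 rose, with summed levels of 11.0 to 11.7 CPM in the control libraries and 24.0 to 24.7 CPM in the others and Col3a1, Dcn and Lum at 0. Nanog (log2 fold change 0.24) and Zfp42 (0.23) rose, and no pluripotency marker was called lower. The trophectoderm marker Krt7 (from 0.00 and 0.0494 to 2.44 and 2.78 CPM, log2 fold change 6.42) and the primitive endoderm marker Dab2 (1.24) rose, and the neural marker Pax6 fell (from 2.34 and 1.88 to 0.447 and 0.00 CPM), a call that DESeq2 did not make (adjusted p = 0.29). No mesoderm marker was called, and the part of these cells in the Id values was not tested.

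The RYBP.21aa deletion was compared with WT RYBP in R7.15 ESCs treated with 4-OHT. Id3 rose 1.59-fold, Smad6 1.82-fold and Bmp4 1.45-fold, and Id1 fell 1.33-fold. Id2, Id4 and Smad7 did not pass the test. There were 3 genes called higher and 1 lower, where 33% of the 14575 tested genes were called, 16.1% higher and 17% lower, and where the groups did not overlap for 65%. The median log2 fold change of the 7 genes was 0.089 against 0.0047.

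Id3 had 52.2 and 57.1 CPM with WT.RYBP and 84.3 and 89.7 CPM with RYBP.21aa deletion (log2 fold change 0.67, SE 0.068, adjusted p = 1.4e-09). Smad6 had 5.097 and 3.99 CPM with WT.RYBP and 7.47 and 9.08 CPM with RYBP.21aa deletion (log2 fold change 0.86, SE 0.20, adjusted p = 8.5e-04), and Bmp4 had 34.3 and 30.5 CPM with WT.RYBP and 46.5 and 47.4 CPM with RYBP.21aa deletion (log2 fold change 0.54, SE 0.084, adjusted p = 4.7e-06). None of these groups overlapped. Id1 had 24.4 and 26.0 CPM with WT.RYBP and 19.1 and 18.8 CPM with RYBP.21aa deletion (log2 fold change -0.41, SE 0.10, adjusted p = 0.0025), and with DESeq2 its adjusted p was 0.056. Id2 had 32.8 and 31.4 CPM with WT.RYBP and 35.5 and 32.8 CPM with RYBP.21aa deletion (adjusted p = 0.48), Id4 4.34 and 3.62 CPM with WT.RYBP and 3.19 and 3.56 CPM with RYBP.21aa deletion (adjusted p = 0.51) and Smad7 58.8 and 57.5 CPM with WT.RYBP and 59.0 and 56.1 CPM with RYBP.21aa deletion (adjusted p = 0.9). Of these 3 genes, Id2 and Smad7 had overlapping groups.

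Fibroblast markers were higher in this table than in any other, with summed levels of 424 to 431 CPM in the control libraries and 343 to 367 CPM in the others, and 3 of 7 were called lower in the deletion libraries, 2 of them also by DESeq2. Trophectoderm markers summed to 9.94 to 10.6 CPM in the control libraries and 37.5 to 38.9 CPM in the others, and 3 of 4 rose, of which DESeq2 called 2. Nanog rose (log2 fold change 0.48), and Pou5f1 (-0.48) and Zfp42 (-0.33) fell. The mesoderm marker T fell from 15.4 and 20.0 to 6.72 and 6.86 CPM (log2 fold change -1.38). The endoderm marker Gata4 (0.59) and the neural marker Pax6 (0.59) were called higher by edgeR and not by DESeq2. Their part in the Id3, Smad6 and Bmp4 values was not tested. Of the other BMP pathway genes 38 were tested, 7 were higher and 8 lower. Dusp9 rose from 72.4 and 74.8 to 165 and 177 CPM (log2 fold change 1.22, SE 0.057, adjusted p = 3.5e-18), and Msx1 (log2 fold change 1.52, SE 0.41, adjusted p = 0.0042, and 0.078 with DESeq2), Msx2 (log2 fold change 1.11, SE 0.25, adjusted p = 7.7e-04) and Bmp7 (from 4.84 and 5.93 to 9.17 and 11.6 CPM, log2 fold change 0.94, SE 0.18, adjusted p = 9.4e-05) rose with it. Fst, which encodes an antagonist of activins and BMPs, fell from 10.4 and 10.5 to 3.94 and 3.83 CPM (log2 fold change -1.43, SE 0.18, adjusted p = 1.7e-07). Of 9 tested antagonist genes 3 were called, all lower, or 33.3%, beside 33% of all tested genes.

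**Figure D2:**
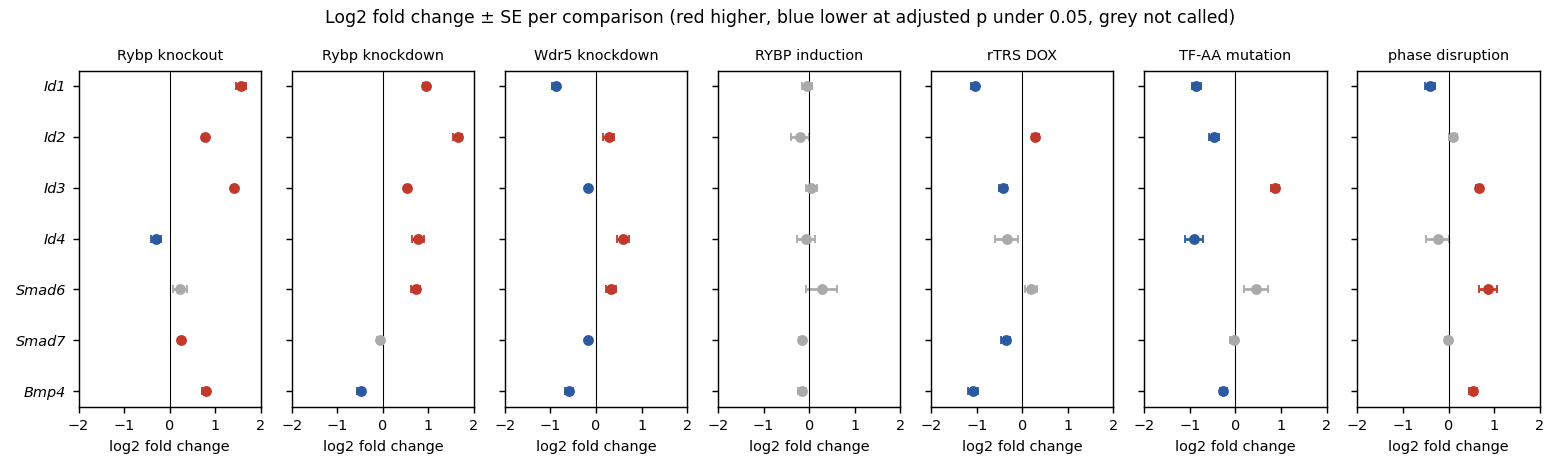
Points give the log2 fold change of each of the 7 genes with its SE as a bar, 1 panel per count table, in red for higher, blue for lower and grey for not called at an adjusted p under 0.05. Id1 runs from 1.56 in the Rybp knockout to -1.04 in the rTRS libraries labelled DOX, and no gene is called in the RYBP induction.

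Across the 7 tables, Id1 was called higher in 2 and lower in 4, Id2 higher in 4 and lower in 1, Id3 higher in 4 and lower in 2 and Id4 higher in 2 and lower in 2. Smad6 was called in 3 tables, in each of them higher, with log2 fold changes from 0.20 to 0.86 over all 7. Smad7 kept within -0.37 and 0.26 and Bmp4 ran from -1.09 to 0.79. Id1 and Bmp4 were both called in 6 tables and had the same sign in 4 of them, the Rybp knockout, the Wdr5 knockdown, rTRS and TF-AA. Over the 7 log2 fold changes, the genes nearest to Id1 by root mean square difference were Tmem90b (0.39), Rerg (0.43), D18Ertd653e (0.44), Serpinb6c (0.45) and Cdh11 (0.47). None of the other 6 genes was among them: Bmp4 ranked 156 of 13125 genes with a difference of 0.75, Smad7 371, Id2 460, Id3 1038, Id4 3515 and Smad6 9076. The 2 knockdown tables share their control libraries, and this order is a description.

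**Figure D3:**
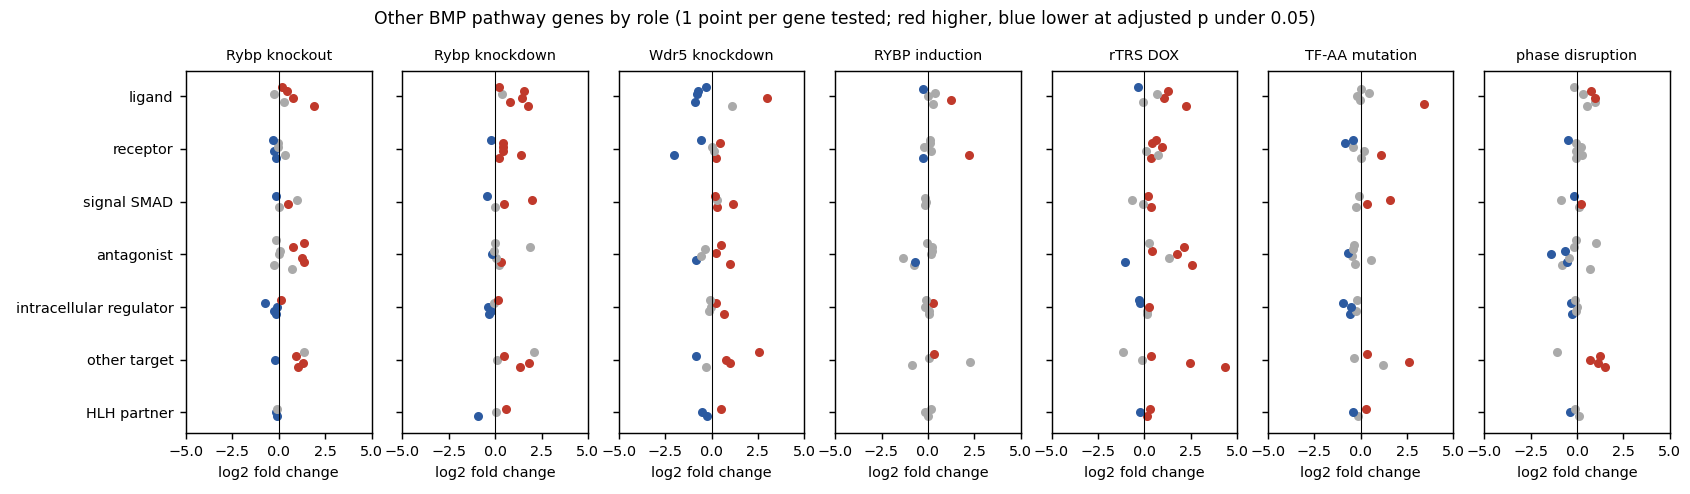
Each point is the log2 fold change of 1 of the 40 other BMP pathway genes that was tested, by role and by count table, in red for higher, blue for lower and grey for not called. Of the antagonist genes 4 are called higher and none lower in the Rybp knockout, and 3 lower and none higher in the phase disruption. These are 44.4% and 33.3% of those tested, against 45.5% and 33% of all tested genes. Msx1 reaches 4.35 in the rTRS libraries labelled DOX.

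In mm9, Id1 lies on the plus strand at chr2:152561987-152563146, Id2 on the minus strand at chr12:25778666-25780957, Id3 on the plus strand at chr4:135699412-135701670 and Id4 on the plus strand at chr13:48356796-48359405. Smad6 lies on the minus strand at chr9:63800953-63869866, Smad7 on the plus strand at chr18:75527183-75555589 and Bmp4 on the minus strand at chr14:47003195-47010344. A330033J07Rik overlaps Id4, and Gm15217 and Gm15222 overlap Bmp4, on the opposite strand. Whether counting used the strand is not given in the sources used here, so reads of these overlapping genes cannot be told apart from those of Id4 and Bmp4.

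Peak lists of chromatin marks and factors were then read at the annotated start of each gene, within 1 kb. The lists were called by the authors with MACS2, in most cases on merged replicates, so they carry no replicate error and were not tested. H3K4me3, a mark of active or poised promoters, had a peak at all 7 starts in both genotypes of R7.15, though at only 2 of them, Id2 and Id4, did at least as much of the peak lie inside this window as outside it. Over all genes a peak was listed at 63.8% of 22380 protein-coding genes in Rybp+/+ and 64% in Rybp-/- ESCs. H3K27ac, a mark of active promoters and enhancers, also had a peak at all 7 (47.6% and 50.2% of genes), of which that of Id4 in Rybp-/- ESCs had a −log10 q-value of 4.39. The fold enrichment of the H3K27ac peak was highest at Smad7, 28.0 in Rybp+/+ and 25.0 in Rybp-/- ESCs, which stood above 96.7% and 97.0% of the peaks of each list.

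At Id1 and Id3, whose counts rose in Rybp-/- ESCs, the H3K27ac peak had a lower fold enrichment there, 4.92 and 2.96 at Id1 and 6.78 and 4.23 at Id3 in Rybp+/+ and Rybp-/- ESCs. The median over all peaks of the H3K27ac lists was also lower in Rybp-/- ESCs, 4.12 and 3.86. At Id2 the values were 4.12 and 4.71, at Id4 3.69 and 3.16, and at Smad6 16.1 and 8.12. Bmp4 went the other way, with 9.45 in Rybp+/+ and 15.2 in Rybp-/- ESCs. For H3K4me3 the values in Rybp+/+ and Rybp-/- ESCs were 25.1 and 27.3 at Id1, 21.2 and 29.8 at Id2, 45.5 and 39.0 at Id3, 34.1 and 54.1 at Id4, 42.6 and 38.5 at Smad6, 53.1 and 57.0 at Smad7 and 27.6 and 40.5 at Bmp4. They were thus higher in Rybp-/- ESCs at 5 of the 7 genes, as was the median over all peaks of the lists, at 7.53 and 7.97.

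WDR5 had a peak at 5 starts in Rybp+/+ ESCs and at 6 in Rybp-/- ESCs, as at 43.4% and 45.7% of genes. Id2 had the strongest, at 16.8 and 19.4, above 93.7% and 93.9% of the peaks in the lists. Id1 had none listed in Rybp+/+ ESCs and one of 3.81 in Rybp-/- ESCs, Id3 had weak ones of 3.26 and 3.95, and Bmp4 had none in either list. At Id4 the values were 6.89 and 10.9, at Smad6 7.71 and 7.62 and at Smad7 8.70 and 4.21. Id1 and Bmp4, the genes that fell the most after the Wdr5 knockdown in R1 ESCs, are thus those without a listed WDR5 peak in Rybp+/+ R7.15 ESCs, while Id2, with the strongest peak, rose by 0.28 on the log2 scale. The cell lines differ, and this was not tested.

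RING1B, measured in cells labelled Tet.Rybp.Stat3 and in ESCs with shEV or shStat3, had a peak at all 7 starts in each of its 4 lists, against 38.1% to 50.8% of all genes. Some of these peaks were weak by their −log10 q-value, which was 1.63 in shEV and 2.25 in shStat3 at Smad7, 4.05 in shStat3 at Id1 and 4.99 in DOX+ cells at Id3. With a minimum of 5 on that scale, all 7 starts kept a peak in the DOX- list alone. The shEV and shStat3 lists came from 1 library each, and the DOX- and DOX+ lists from merged replicates. The peaks were strong at Smad6, with a fold enrichment of 40.1 in shEV, 44.7 in shStat3, 41.5 in DOX- and 29.0 in DOX+ cells, and at Id4, with 22.7, 34.0, 42.0 and 34.5. They were weak at Id1, from 3.67 to 5.88, and at Smad7, from 2.80 to 6.05. Id2 had peaks from 9.58 to 16.2, Id3 from 3.83 to 9.19 and Bmp4 from 6.51 to 19.8. Smad6 and Id4, with the strongest RING1B peaks, were also the genes with the lowest mean levels per length in all control groups except Rybp+/+, where Id4 and Id1 overlapped between libraries. Several of these groups are of cells without a RING1B list, and a link between peaks and levels was not tested.

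STAT3 had a peak at Smad6 and Id4 alone in the Rybp+/+ list (4.74 and 5.16) and in the DOX- list (5.15 and 4.75), and at Smad6 alone in the Rybp-/- list (5.65). The peaks of the DOX- list had a −log10 q-value of only 3.18 and 2.70, and neither passed a minimum of 5. Over all protein-coding genes, 6.28% had a peak in the Rybp+/+ list and 5.43% in the Rybp-/- list, each from 1 library. The DOX+ list had a STAT3 peak at all 7 starts, from 3.36 at Id2 to 8.75 at Bmp4. That list holds 30663 peaks and covers 52.5% of genes, where the DOX- list holds 2816 and covers 7.72%. Most genes with a peak in the DOX+ list had none in the DOX- list, and the numbers of reads behind these lists are unknown.

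**Figure D4:**
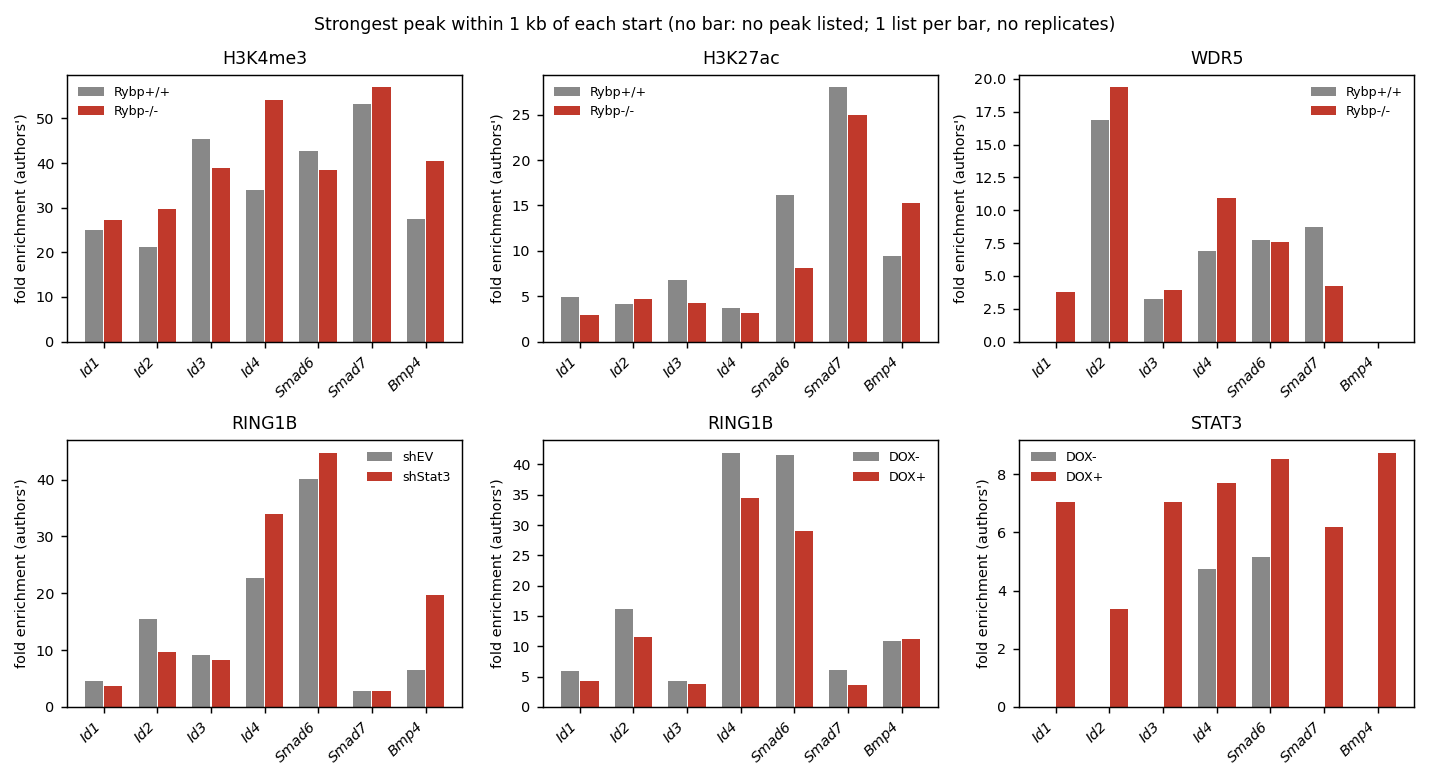
Bars give the authors' fold enrichment of the strongest peak within 1 kb of each start, by mark or factor, with the control list in grey and the other list in red, and no bar where no peak is listed. RING1B bars are tall at Id4 and Smad6, the WDR5 bar at Id2, and STAT3 bars are present at all 7 genes in DOX+ cells.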

How the data were processed

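RNA from mouse ESCs was sequenced, and the authors trimmed reads with Trim Galore, aligned them to mm9 with STAR and counted them per gene with HTSeq, as the labels and the study's methods give. Whether counting used the strand is not given in the sources used here. The 7 deposited tables hold raw counts per gene, of which 14512857 to 81049618 per library fell on genes in 26 libraries. These are shown in 28 columns because the shEV libraries appear in 2 tables. The shEV totals differ between the 2, while the proportions across genes differ by less than sampling noise (chi-square per degree of freedom 0.082 and 0.074). Rows that name no gene, 13.7% to 58.5% of the reads in the 6 tables that give them, were left out. For shEV replicate 1 this share was 22.8% in the Rybp knockdown table and 56.3% in the Wdr5 knockdown table. The reason was not tested. A few column names (NTC, WT, and 1 library each of the rTRS and phase disruption tables) match the labels only through the table they stand in. Each table was fitted by itself in edgeR 4.0.16 (R 4.3.3) with TMM factors, filterByExpr, the quasi-likelihood test and Benjamini-Hochberg adjustment over all tested genes, with calls at an adjusted p under 0.05. The study's methods name edgeR with default parameters, and the filter, test and threshold were chosen here. The fit was tested on simulated data. RPKM were computed from the deposited gene lengths, and those of another table served for the RYBP induction, which has none. Peak lists were called by the authors with MACS2 on mm9, with replicates merged in 10 lists and 1 library in 4. The latter are RING1B in shEV and shStat3 and STAT3 in Rybp+/+ and Rybp-/- ESCs. The deposited lists give fold enrichment and a −log10 q-value per peak, both as MACS2 wrote them, and starts came from the mm9 annotation. The 7 genes, the 40 other BMP pathway genes and the marker lists were chosen with earlier results of these data known. Named pathway genes are up to 5 per table with the largest absolute log2 fold change among those called with a mean of at least 1 CPM, of which 1 in the Rybp knockout is not reported here. Alternatives were DESeq2 1.42.0, RLE factors, other filters, a replicate block, leaving out each library and, added after seeing the data, total counts without factors.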

Additional observations from a re-analysis of the deposited data

Results flagged for a closer look

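Id4 and Bmp4 moved in opposite directions in the 2 lines in which Rybp was removed, with every library of a line on its side. Id4 had a log2 fold change of -0.30 in the Rybp knockout of R7.15 and 0.77 in the Rybp knockdown of R1, and Bmp4 one of 0.79 and -0.49. The difference itself was not tested, since the tables were made separately, and line, 4-OHT treatment and the remaining Rybp level differ between them as well. The Id4 call in the knockout was lost without either of 2 single libraries, with DESeq2 and without the filter on low counts.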

How the results depend on the processing

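The 49 log2 fold changes of the 7 genes were recomputed under 10 alternatives each. Of the 490 values, 453 kept direction and side of the threshold, 24 lost the call, 2 gained it and 11 turned sign, none of the last being a gene that was called. With total counts and no factors, which moved the median of all genes in the Rybp knockdown to 0.15, Smad7 was at 0.10 in the Rybp knockdown, 0.00021 in TF-AA and 0.038 in the phase disruption. DESeq2 called 4 of the 7 genes in the Wdr5 knockdown and 3 pathway genes in the RYBP induction. Without 1 library, the number of the 7 genes called was 4 to 5 in the Wdr5 knockdown, 0 to 1 in the RYBP induction and 3 to 5 in rTRS, and pathway genes called were 1 to 7 in the RYBP induction and 8 to 16 in TF-AA. Smad7 then ran from -0.16 to 0.032 in the Rybp knockdown, -0.10 to 0.017 in TF-AA and -0.053 to 0.018 in the phase disruption, and in the RYBP induction Id1 ran from -0.15 to 0.063 and Id3 from -0.15 to 0.22. The cause was not tested. Peaks were found for 79 of 98 pairs of gene and list, 80 with a window of 2.5 kb, which added a WDR5 peak for Bmp4 in Rybp-/- ESCs, and 71 with a −log10 q-value of at least 5, which left fewer than 7 starts for H3K27ac in Rybp-/- ESCs (6) and for RING1B in shEV (6), shStat3 (5) and DOX+ cells (6), took the WDR5 peak of Id3 in Rybp+/+ ESCs and left no STAT3 peak in the DOX- list. When at least as much of the peak had to lie inside the window as outside it, 47 pairs were left. All 7 starts then kept a peak only for STAT3 in DOX+ cells, with 2 for H3K4me3 in either genotype, 4 and 5 for H3K27ac in Rybp+/+ and Rybp-/- ESCs and 3 to 4 for RING1B.

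Same-numbered libraries of a table correlated at -6.2e-05 to 0.201 in their deviations from the group means, with only 2 pairs, so the numbers were not taken as pairs. With the replicate number as a replicate block, all 49 values of the 7 genes kept their call, and 6, 6, 7, 0, 5, 5 and 4 genes were called in the Rybp knockout, Rybp knockdown, Wdr5 knockdown, RYBP induction, rTRS, TF-AA and phase disruption tables.

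With 2 libraries per group, genes with few counts such as Smad6 in the RYBP induction and Id4 in rTRS have wide errors, and no value here separates cell line from table.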
